A study of Mus musculus with 10 samples.

Results

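The open chromatin described here is that of mouse bone marrow-derived dendritic cells (BMDCs) kept in vehicle, set beside the RNA of the same vehicle group. It comprises 5 of the 10 samples of the series, namely 2 ATAC libraries and 3 RNA libraries chosen by their DMSO label, and it yielded 15643 consensus regions. ATAC sequencing maps open chromatin from the places where a transposase (Tn5) inserts adapters, and a peak is an interval with more insertions than its surroundings. The cells came from female wild-type C57BL/6 mice of 8 to 10 weeks. Their bone marrow was grown for 7 days with GM-CSF at 20 ng/mL, non-adherent cells were taken on day 6, and the vehicle was 0.04% DMSO for 24 h. Each ATAC library was made from nuclei of 100000 cells by a 30 min transposase reaction run at 37 °C. Whether the replicates are distinct mice or cultures is not stated in the labels, so their spread may be technical. They also do not say whether an ATAC and an RNA library with the same number came from the same cells, and none were paired.

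Dendritic cells take up antigen, process it and present it on MHC molecules to T cells. Progenitors grown in GM-CSF give a mixed culture in which dendritic cells, macrophages and granulocytes can occur together. The transcription factors PU.1 (Spi1), IRF4 and IRF8 shape the dendritic cell programme, and CIITA drives the MHC class II genes. Active promoters are usually depleted of nucleosomes just upstream of the start of transcription. Many broadly used genes start in CpG islands, stretches rich in the CpG dinucleotide, whereas many genes of a particular lineage start in CpG-poor sequence and rely more on distal enhancers.

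The promoters of 7 genes are shown because they span what the vehicle cells displayed, from the strongest gene start with a measured level to an abundant transcript with no peak at its start. Each sequence runs 5′ to 3′ on the strand of the gene, from 250 bases before to 50 bases from the start site, as RefSeq gives it for GRCm38.p6 (the build the files call mm10). Capitals mark bases inside a consensus region, that is, inside a peak of both vehicle libraries.
Desi2, chr1:178187167-178187466, plus strand: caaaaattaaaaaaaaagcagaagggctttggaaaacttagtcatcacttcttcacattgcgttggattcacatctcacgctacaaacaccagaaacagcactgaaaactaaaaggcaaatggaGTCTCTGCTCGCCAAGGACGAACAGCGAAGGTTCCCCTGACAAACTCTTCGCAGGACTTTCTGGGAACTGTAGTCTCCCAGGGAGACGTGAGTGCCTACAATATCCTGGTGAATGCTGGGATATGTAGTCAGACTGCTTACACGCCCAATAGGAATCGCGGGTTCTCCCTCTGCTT
Irf8, chr8:120736108-120736407, plus strand: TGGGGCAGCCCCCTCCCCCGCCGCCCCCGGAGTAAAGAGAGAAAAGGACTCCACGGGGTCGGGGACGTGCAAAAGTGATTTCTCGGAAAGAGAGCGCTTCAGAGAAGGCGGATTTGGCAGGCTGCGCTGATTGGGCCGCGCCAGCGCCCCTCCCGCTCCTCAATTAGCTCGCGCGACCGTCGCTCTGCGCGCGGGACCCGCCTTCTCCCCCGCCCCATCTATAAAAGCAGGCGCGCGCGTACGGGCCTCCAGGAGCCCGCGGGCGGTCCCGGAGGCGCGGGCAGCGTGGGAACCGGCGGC
Itgax, chr7:128129300-128129599, plus strand: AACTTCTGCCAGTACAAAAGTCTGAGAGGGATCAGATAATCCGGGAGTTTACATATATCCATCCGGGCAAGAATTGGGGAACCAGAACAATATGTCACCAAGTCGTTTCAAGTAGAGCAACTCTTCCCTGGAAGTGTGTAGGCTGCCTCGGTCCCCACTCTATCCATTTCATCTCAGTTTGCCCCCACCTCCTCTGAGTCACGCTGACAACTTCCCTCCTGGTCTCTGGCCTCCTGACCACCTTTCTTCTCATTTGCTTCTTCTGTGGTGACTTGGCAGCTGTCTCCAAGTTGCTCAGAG
Tnf, chr17:35201958-35202257, minus strand: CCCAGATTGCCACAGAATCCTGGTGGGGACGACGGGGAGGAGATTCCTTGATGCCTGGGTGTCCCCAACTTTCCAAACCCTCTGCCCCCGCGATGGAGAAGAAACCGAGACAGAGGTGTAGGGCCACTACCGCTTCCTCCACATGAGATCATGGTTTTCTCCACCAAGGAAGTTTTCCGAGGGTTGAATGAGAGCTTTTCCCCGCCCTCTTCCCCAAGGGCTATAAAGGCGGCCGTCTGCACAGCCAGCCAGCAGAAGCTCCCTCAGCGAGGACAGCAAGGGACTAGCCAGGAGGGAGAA
Il1b, chr2:129371090-129371389, minus strand: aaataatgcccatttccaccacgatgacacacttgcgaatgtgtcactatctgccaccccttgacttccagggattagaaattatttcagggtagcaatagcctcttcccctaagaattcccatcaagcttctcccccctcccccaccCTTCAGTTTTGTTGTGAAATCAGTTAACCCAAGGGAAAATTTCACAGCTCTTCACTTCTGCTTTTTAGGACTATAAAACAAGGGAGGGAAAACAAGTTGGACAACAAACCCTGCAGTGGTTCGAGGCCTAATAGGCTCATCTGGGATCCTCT
Il12b, chr11:44399813-44400112, plus strand: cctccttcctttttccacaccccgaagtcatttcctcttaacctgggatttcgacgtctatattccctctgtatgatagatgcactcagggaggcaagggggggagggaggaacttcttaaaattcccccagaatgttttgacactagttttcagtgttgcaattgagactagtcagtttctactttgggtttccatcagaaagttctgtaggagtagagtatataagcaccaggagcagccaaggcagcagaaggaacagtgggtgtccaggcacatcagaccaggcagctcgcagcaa
Chil3, chr3:106167515-106167814, minus strand: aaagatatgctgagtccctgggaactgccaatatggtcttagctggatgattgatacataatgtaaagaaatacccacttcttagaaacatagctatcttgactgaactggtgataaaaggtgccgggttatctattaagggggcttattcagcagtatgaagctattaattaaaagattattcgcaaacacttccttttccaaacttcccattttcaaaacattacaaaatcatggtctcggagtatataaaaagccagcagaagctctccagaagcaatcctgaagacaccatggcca

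All 300 bases lay in a region at Irf8, Itgax and Tnf, against 176 at Desi2 and 152 at Il1b. None did at Il12b, a subunit of the cytokines IL-12 and IL-23, or at Chil3, a chitinase-like secreted protein. The Irf8 window was the richest in CpG, with an observed over expected CpG ratio of 1.03, where 1 means as many CpG as the C and G content predicts. The ratio was 0.614 at Desi2, 0.436 at Tnf, 0.275 at Itgax, 0.268 at Chil3, 0.232 at Il12b and 0.202 at Il1b. The letters TATAAA began 31 bases before the start at Irf8 and Il1b and 29 bases before it at Tnf, and at Chil3 they began 3 bases before the listed start. Irf8 RNA stood at 202, 218 and 234 CPM (counts scaled to a common library total) in vehicle replicates 1 to 3, and Itgax at 611, 700.1 and 813. Tnf stood at 83.0, 91.3 and 72.5, Il1b at 102, 112 and 96.2, and Desi2 at a mean of 32.8. Il12b stood at 10.6, 11.8 and 14.5 and Chil3 at 4374, 3458 and 2860, so the gene with the most RNA among these 7 had no peak at its start.

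The libraries gave similar peak lists. Replicate 1 held 18460 distinct intervals over 10.4 Mb and replicate 2 held 19225 over 10.3 Mb. Of these, 15565 (84.3%) and 15583 (81.1%) touched an interval of the other library. The deposited consensus was the intersection of both lists and covered 8.08 Mb. Consensus regions had a median width of 475 bases (quartiles 335 and 645), ran from 5 to 2385 bases, and 659 of them (4.21%) were wider than 1 kb. The fold, the authors' enrichment of each peak over its local background, had a median of 7.31 (5.02 to 10.7) in replicate 1 and 8.04 (5.29 to 12.1) in replicate 2. Over the 15643 regions the folds of both libraries had a Spearman correlation of 0.872, a description in which each point shares its region and its local sequence. No peak lay on the Y chromosome or on the mitochondrial genome in either list. The peak lists carry no read counts, so the depth of the ATAC libraries is unknown.

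Intervals found in 1 library only were weaker and narrower than shared ones. In replicate 1 the 2895 unshared intervals had a median fold of 4.39 and a median width of 341 bases, against 8.18 and 558 for shared intervals. In replicate 2 the 3642 unshared intervals had 4.41 and 286 bases, against 9.32 and 546. Promoters made up 13.1% and 18.3% of the unshared intervals, against 48.1% of the shared ones in each library.

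Gene starts held the strongest and widest regions. Of the 15643 consensus regions, 7512 (48.0%) lay within 1 kb of a start site listed by RefSeq, and 1455 (9.30%) lay within 1 kb of either end of a gene that had no listed start. A further 4104 (26.2%) lay within a gene and 2555 (16.3%) between genes, while 17 were on contigs outside the chromosomes. The files used here give no exons or introns, so positions within a gene are not divided further. In replicate 1 the median fold was 9.80 at promoters, 5.75 within genes and 5.95 between genes, and in replicate 2 it was 11.2, 6.08 and 6.13. The ratio of promoter to distal fold, averaged over both libraries, was 1.76. Median consensus width was 543 bases at promoters, 380 within genes and 389 between genes. Beyond 1 kb the fold differed little with distance. Consensus regions 1 to 10 kb from a start or gene end had a median fold of 6.63 (mean of both libraries), those at 10 to 100 kb 6.91, and the 176 beyond 100 kb 6.94. In the library lists these distances gave 5.72, 5.92 and 5.75 in replicate 1 and 5.98, 6.17 and 5.59 in replicate 2, so the intervals beyond 100 kb were not the highest there.

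**Figure D1:**
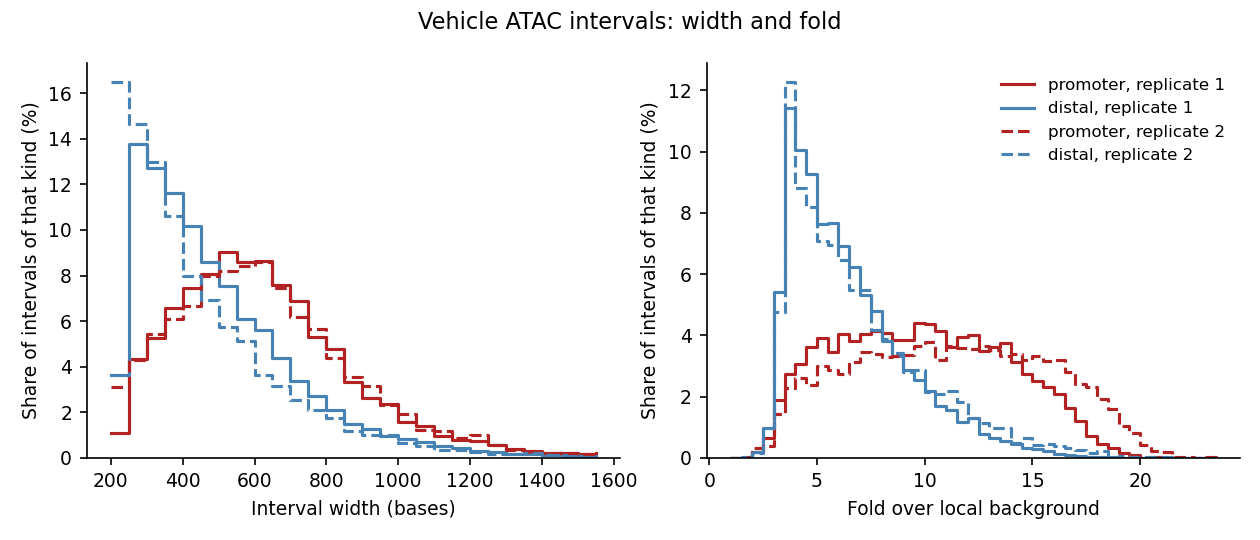
Left, widths of the intervals in each vehicle ATAC library in 50-base bins, and right, their fold over local background in bins of 0.5, each as a share of the promoter or distal (within or between genes) intervals of that library. Solid lines are replicate 1 and dashed lines replicate 2; widths above 1600 bases are not drawn. Distal intervals pile up at low fold and small width in both libraries, with medians of 5.75 to 6.13, while promoter intervals spread to higher values, with medians of 9.80 and 11.2.

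Sorting consensus regions by fold made the same point in steps. With regions cut into 4 equal bins, promoters were 25.6% of the lowest bin by fold, then 36.2%, 54.3% and 75.9% of the highest. By width the shares were 26.7%, 45.1%, 57.7% and 62.6%. Summits, the points of highest signal, sat just upstream of gene starts. In replicate 1, 7689 intervals had their highest summit within 1 kb of a listed start, at a median of −26 bases (quartiles −98 and 49), and 60.2% were upstream. In replicate 2 there were 7991, at a median of −27 bases, and 61.7% were upstream.

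**Figure D2:**
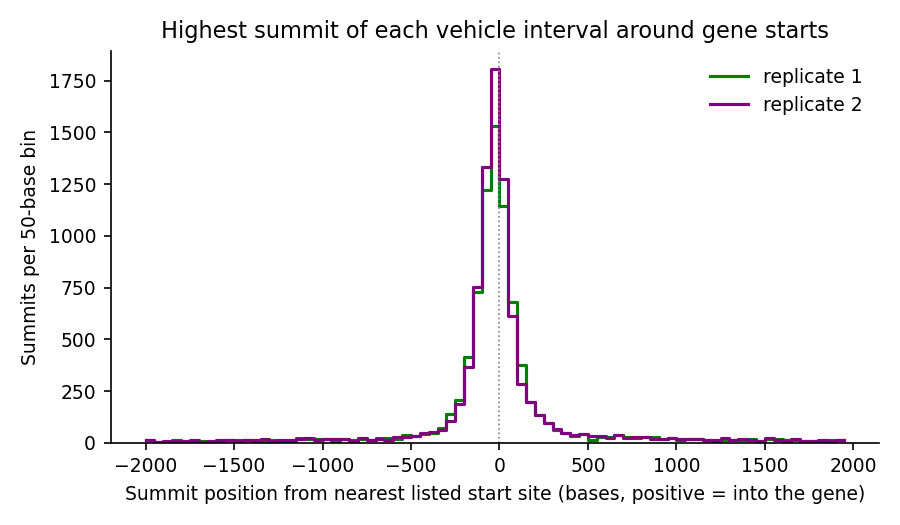
Number of highest summits per 50-base bin by distance from the nearest listed start site, for each vehicle ATAC library; negative values are upstream and the dotted line is the start. Both libraries form a narrow peak just upstream of the start, with medians of −26 and −27 bases.

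Of the 5 regions with the highest fold, 4 lay at a listed start. The strongest, at chr3:40893896-40894294, had its centre 10 bases from the start of 6430590A07Rik and folds of 19.1 and 23.1. The next, at chr1:178187291-178187729, covered the start of Desi2 (20.9 and 19.9), the gene of a deSUMOylating peptidase. A region 463 bases from the start of Cdc6, a loader of the replicative helicase, had 18.3 and 22.5, with Cdc6 RNA at 28.3 ± 0.757 CPM (SD, n = 3). The remaining pair lay at Cox18 (8.65 ± 0.673 CPM), an assembly factor of cytochrome oxidase, and at Selenoi, an enzyme of phospholipid synthesis. The widest regions were of another kind, with folds between 5.40 and 10.5. They lay near 4930526I15Rik (2385 bases, 5.96 ± 0.514 CPM), Alyref2 (2287 bases, 4.96 ± 0.752 CPM), Gm35413 (1989 bases) and Eapp (1876 bases, 27.9 ± 0.827 CPM). The fifth, of 1866 bases, lay between genes and 9978 bases from Lfng (183 ± 12.6 CPM), a glycosyltransferase acting on Notch receptors. Of the 17 regions on other contigs, 14 lay on JH584304, with median folds of 3.24 and 3.25.

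The RNA table gave 31413578, 28457863 and 28754835 counts in the vehicle libraries over 24385 genes, of which 18071 had a listed start. A gene is called open here when a consensus region lies within 1 kb of one of its starts, and 7837 of the 18071 (43.4%) were. CPM is not divided by transcript length, so it ranks genes only roughly. The share of open genes rose with expression in steps. It was 50 of 5037 genes without a count in any vehicle library (0.993%, exact 95% interval 0.738 to 1.31%), 7.08% of 1851 genes below 0.1 CPM and 20.4% of 1734 genes from 0.1 to 1 CPM. It was then 49.4% of 2165 genes from 1 to 10 CPM, 84.4% of 5410 from 10 to 100 CPM, and 89.0% of 1874 genes at or above 100 CPM (87.4 to 90.3%). The intervals cover counting error only. At or above 1 CPM, 7302 of 9449 genes were open (77.3%). The same steps appeared in each peak list taken alone, with 1.23% and 1.39% at the low end and 90.1% and 91.5% at the high end.

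**Figure D3:**
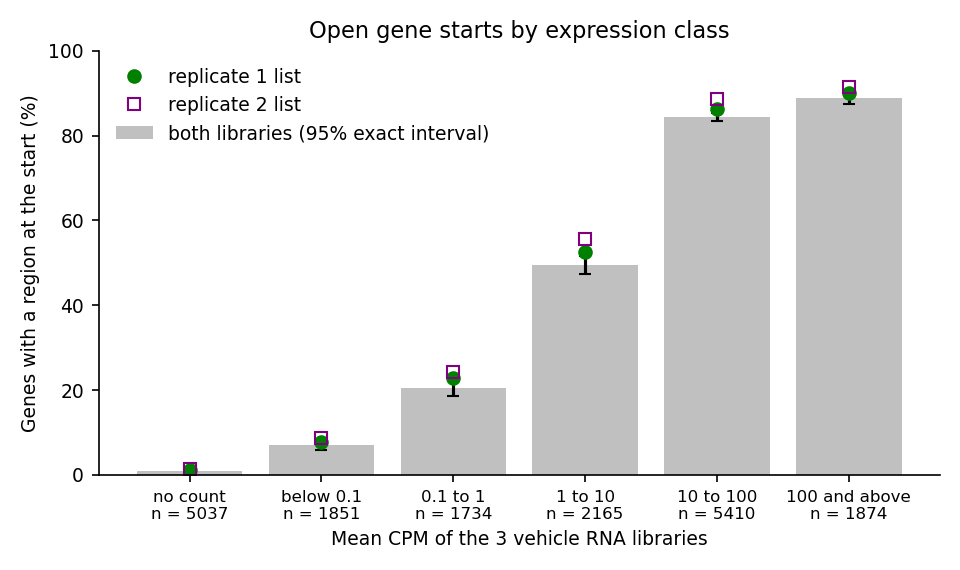
Share of genes (%) with a consensus region within 1 kb of a listed start, by mean CPM over the 3 vehicle RNA libraries; bars show both libraries with exact 95% intervals, circles and squares the peak list of each ATAC library. The share climbs from 0.993% of genes without a count to 89.0% of genes at or above 100 CPM, and both single lists lie at or slightly above the bars.

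Among open genes, the strength of the region said little about the level of RNA. Sorted into 4 equal bins by promoter fold, open genes had median CPM of 32.9, 36.5, 40.3 and 40.4, and genes at or above 100 CPM made up 21.6%, 20.3%, 21.6% and 21.5%. Across genes with a count and a peak at the start in the library concerned, including peaks found in that library only, the Spearman correlation between promoter fold and CPM was 0.0716 in replicate 1 (8040 genes) and 0.108 in replicate 2 (8294 genes). Genes share libraries and neighbouring sequence and are not independent replicates. With peaks limited to a −log10 q of at least 5 or 10, the mean of both correlations fell from 0.0897 to 0.0522 or 0.00427.

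Wider promoter regions went with more RNA. Open genes whose region was under 400 bases wide had a median of 23.3 CPM (1599 genes), and 12.4% of them reached 100 CPM. At 400 to 700 bases the median was 37.1 CPM (4058 genes), at 700 to 1000 bases 50.7 CPM (1718 genes), and at 1000 bases and over 73.2 CPM (462 genes), where 40.7% reached 100 CPM. The median of the widest band was 71.4, 72.9 and 72.3 CPM in RNA replicates 1 to 3, above the 23.1, 23.3 and 23.6 of the narrowest in each library. The rank correlation between width and CPM was 0.214 over 7787 genes.

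Distal regions, that is, regions within or between genes counted up to 50 kb from a start, followed expression as well. The rank correlation between their number and CPM was 0.206 over 13034 genes with a count. Genes without a count had 0.133 of them on average, and 9.55% had any. Genes at or above 100 CPM had 1.20, and 59.1% had any. Among open genes at or above 1 CPM the median rose from 35.2 CPM with no distal region (4255 genes) to 47.2 with 1, 58.7 with 2, 82.6 with 3 to 4, and 136 with 5 or more (92 genes). Genes at or above 1 CPM that were not open had lower medians at each step, from 7.51 CPM (1163 genes) to 47.9 CPM (30 genes). Genes with only distal regions had a median of 0.199 CPM, and the 7498 with neither kind had a median of 0. Neighbouring genes share distal regions, so these counts overlap.

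Gene lists by role were set beside the open share of all genes at the same level. Over the 19 lists, 98 of 169 members at or above 1 CPM were open, as against 77.3% of all genes at that level, and 1 of 60 members below 1 CPM was, where 6.21% of all genes below 1 CPM were. Housekeeping genes were open in 10 of 11 cases, with Gapdh (2673 ± 145 CPM) at folds of 9.44 and 12.3 and Rplp0, a ribosomal protein, at 16.2 in both. Tubb5 (1095 ± 8.89 CPM), a tubulin, had a peak in replicate 2 only. The most abundant member, Actb at 7480 ± 192 CPM, had no listed start, and no consensus region lay at either end of it, although 1 lay inside the gene. Cell cycle genes were open in 15 of 18 cases. Mki67, a marker of dividing cells, stood at 556, 494 and 554 CPM with folds of 8.79 and 11.0. The others were Mcm2 (117 ± 4.28 CPM) and Tyms (43.9 ± 3.37 CPM), each with a peak in replicate 1 only, and Rrm2 (100.4 ± 8.80 CPM), whose nearest region was 56.1 kb away.

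Transcription factors of dendritic and myeloid cells were open in 19 of 21 cases, all at or above 1 CPM, where 77.3% of all genes were. Irf8 had a region of 472 bases (folds 9.05 and 9.38) and Irf4 (246 ± 25.2 CPM) had a region of 405 bases at chr13:30749106-30749510 (8.14 and 11.7). Stat3, a signal transducer of cytokine receptors, had the highest folds in the list at 17.0 and 17.2. Id2 and Nfil3, regulators of dendritic cell development, had wide regions of 900 and 1117 bases. The 2 that were not open were Zbtb46 (24.8 ± 2.19 CPM), a marker factor of classical dendritic cells, and Batf (25.8 ± 0.804 CPM), a partner of the IRF factors. The only listed start of Zbtb46 lay inside the gene, so its outer 5′ end was not examined. In the Zbtb46 gene or within 1 kb of it lay 3 consensus regions, against 1 for Batf. Spi1 (441 ± 6.49 CPM) had no listed start, and a region of 671 bases lay at an end of the gene. Such regions lay at 6 of the 7 listed factors without a start.

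Receptors of the GM-CSF and dendritic cell list were open in 6 of 13 cases, and all 7 members without a listed start had a region at an end. Of the 12 with a listed start and at least 1 CPM, 6 were open, against 77.3% of all genes at that level. Itgax encodes CD11c, the integrin used to recognise dendritic cells, and its region spanned 621 bases with folds of 5.73 and 4.29. Itgam, its CD11b relative, stood at 2288, 2150 and 1718 CPM with folds of 6.75 and 5.96, in a region 670 bases from the listed start. Csf2rb (2734 ± 69.4 CPM), the shared signalling chain for GM-CSF, and Csf1r (1061 ± 72.1 CPM), the receptor for M-CSF, had regions of 593 and 396 bases at an end. Several abundant receptors had no peak at the listed start in either library. Ccr2 (637 ± 83.0 CPM), a chemokine receptor of monocytes, and Mrc1 (185 ± 66.8 CPM), the mannose receptor, were among them, with the nearest regions 33.1 and 20.6 kb away. Csf2ra, the binding chain for GM-CSF, had 530, 576 and 293 CPM, lowest in replicate 3, and its nearest region was 87.3 kb away. Clec9a and Xcr1, markers of cross-presenting dendritic cells, stood at 1.16 ± 0.191 and 0.465 ± 0.136 CPM, neither open.

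MHC class II presentation genes were open in 9 of 11 cases, mostly at low fold. All 11 were at or above 1 CPM, where 77.3% of all genes were open, so this share was close to the common one. H2-Aa, the alpha chain of the I-A molecule, stood at 907, 1125 and 1493 CPM, highest in replicate 3, with folds of 6.49 and 8.44 over 343 bases. The region at H2-Eb1 (974 ± 282 CPM), a beta chain of I-E, had folds of 5.20 and 5.44, and that at H2-DMa (354 ± 57.2 CPM), a subunit of the peptide editor, had 3.44 and 3.40. Rfx5 and Rfxank, broadly expressed factors that bind class II promoters, had higher folds, at 16.0 and 18.3 and at 10.4 and 12.5, with only 34.9 ± 1.51 and 14.2 ± 0.682 CPM. H2-Aa and H2-Eb1 thus had more RNA but lower folds than Rfx5 and Rfxank. H2-DMb2 (69.2, 73.6 and 86.5 CPM) and Ctss (1242 ± 180 CPM), the protease that trims the invariant chain, were not open. Cd74, the invariant chain, at 3930 ± 885 CPM had a region of 505 bases at an end. Ciita (124 ± 26.5 CPM) and H2-Ab1 (1177 ± 344 CPM) had neither a listed start nor a region at an end, although 1 region lay inside Ciita.

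Co-stimulation and maturation genes were open in 6 of 10 cases, and in 6 of the 9 at or above 1 CPM, where 77.3% of all genes were. Ccl22, a chemokine that attracts T cells, led at 2215, 2444 and 2155 CPM with folds of 6.04 and 9.52. Fscn1, an actin bundler of mature dendritic cells, was open at 523 ± 28.5 CPM with folds of 4.00 and 4.74. Cd80, a ligand of CD28, had 64.2 ± 3.33 CPM and a peak in replicate 2 only. Pdcd1lg2 (95.8 ± 14.2 CPM), a ligand of PD-1, had no peak at its start but 5 distal regions within 50 kb. Cd40 (17.6 ± 1.71 CPM) and Cd86 (106 ± 7.49 CPM), both of which engage T cells, and the homing receptor Ccr7 (625 ± 43.7 CPM) had no listed start and a region at an end.

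Inducible cytokine genes were open in 5 of 12 cases, and in 5 of the 10 at or above 1 CPM, where 77.3% of all genes were. At the promoters printed above, the region over the Tnf start spanned 633 bases (folds 6.36 and 7.23), and that over the Il1b start 257 bases (4.24 and 3.57), with 6 distal regions within 50 kb. Il6 (4.81 ± 0.673 CPM) had a peak in replicate 1 only (fold 4.43) and Ptgs2 (2.15 ± 0.0939 CPM), a prostaglandin synthase, in replicate 2 only. Il12b and Il1a (12.7 ± 2.62 CPM) had none, and Ifnb1 and Csf2 stood at 0 and 0.0340 ± 0.0352 CPM with no peak. Il18 was open at 2.48 ± 0.883 CPM. Among chemokines 5 of 9 were open, 4 of 6 at or above 1 CPM and 1 of 3 below it, where 6.21% of all genes were. These were led by Ccl6 (3399, 3506 and 2779 CPM, region 895 bases). Its neighbour Ccl9 (509 ± 28.5 CPM) was not, and had its nearest region 6.12 kb away. Ccl12 was the only list member open below 1 CPM (0.227 ± 0.162 CPM), with folds of 5.03 and 5.29.

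Interferon-stimulated genes were open in 6 of 16 cases, although all 16 were at or above 1 CPM, where 77.3% of all genes were open. Irf1 and Stat2, which transmit interferon signals, had folds of 14.6 and 14.7 and of 15.0 and 17.8. The antiviral effectors Ifit1 (4.02 ± 0.320 CPM), Ifit3 (1.84 ± 0.134), Rsad2 (5.23 ± 0.698) and Isg15 (6.82 ± 0.663) had no peak at the start. Ddx58 and Oas1a, sensors of viral RNA, had none at 49.7 ± 4.15 and 37.7 ± 1.89 CPM. Pattern recognition genes were open in 9 of 17 cases, all 17 at or above 1 CPM. Among the open ones were Tlr2 (356 ± 11.6 CPM, folds 8.28 and 10.3), Nlrp3 (205 ± 2.28 CPM) and the adaptor Myd88 (180.1 ± 1.46 CPM, 14.7 and 15.5). The Myd88 region lay 953 bases from the listed start. Tlr8, Tlr1, Tlr12 and Tlr11 were not open, at 27.3, 7.50, 4.29 and 3.76 CPM. Clec7a, the receptor for fungal beta-glucan, had 306 ± 23.9 CPM and a peak in replicate 1 only.

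**Figure D4:**
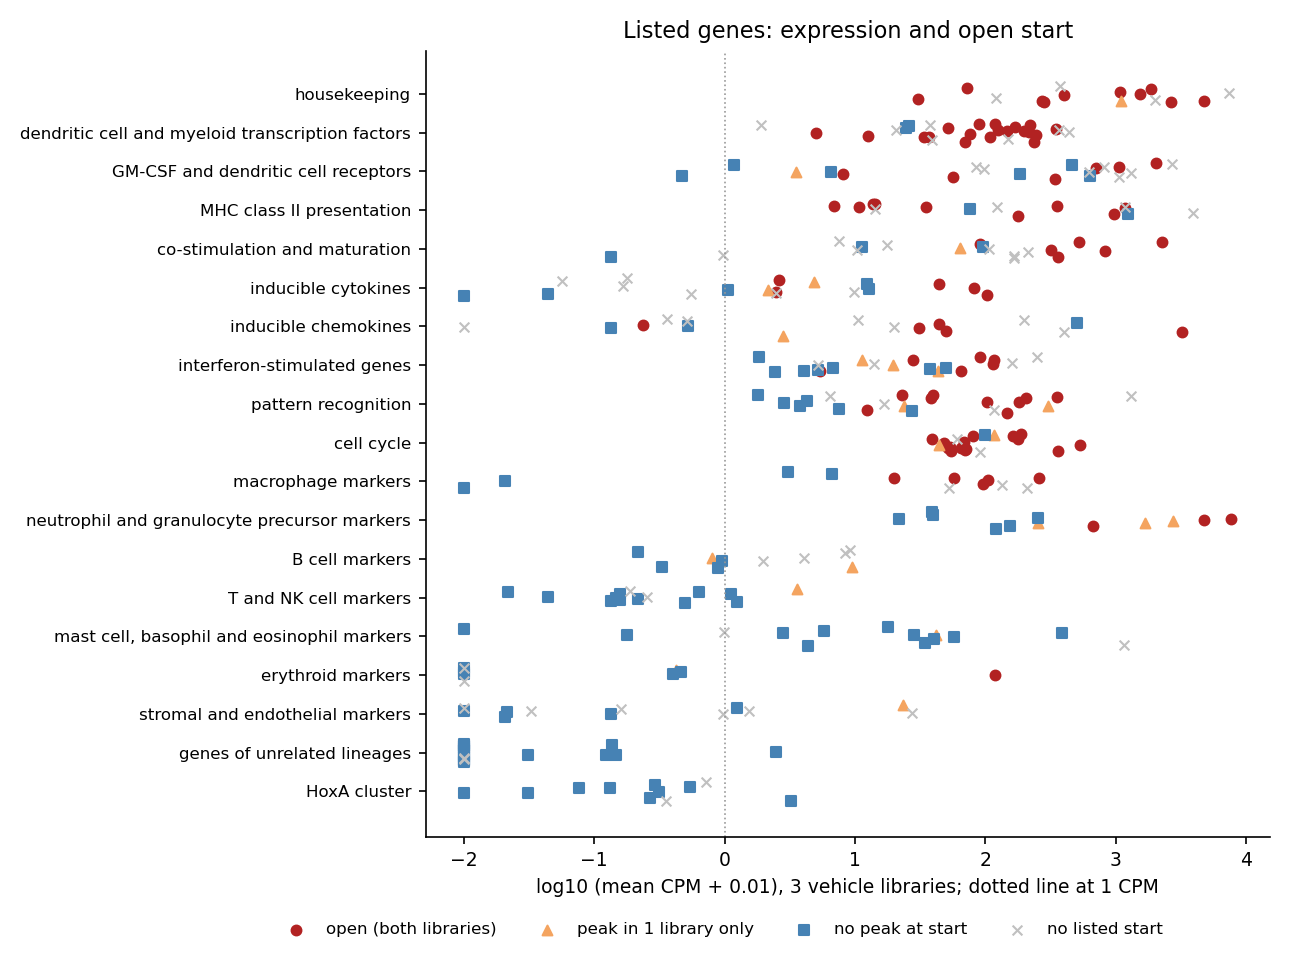
Mean expression, as log10 of CPM plus 0.01, of every list member in the count table, with 1 row per list and small random vertical offsets; red circles mark genes with a consensus region at the start, orange triangles a peak in 1 library only, blue squares no peak and grey crosses no listed start. Open members lie almost all to the right of 1 CPM, and in the granulocyte and the mast cell, basophil and eosinophil rows many members far to the right are blue.

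Markers of other cell types were checked in the same way. Neutrophil and granulocyte precursor markers were abundant in RNA, all 12 measured members being above 1 CPM, with summed levels of 22197, 19345 and 14036 CPM in replicates 1 to 3. Only 3 of the 12 were open, against 77.3% of all genes at or above 1 CPM. S100a9, a calcium-binding protein of granulocytes and monocytes, reached 9369, 8233 and 5628 CPM at folds of only 3.37 and 4.84. S100a8 and Mmp8 were the other two. Ngp (2772 ± 514 CPM), Ltf (1677 ± 314 CPM) and Camp (253 ± 41.1 CPM), proteins of secondary granules, each had a peak in 1 library only, and Mpo (254 ± 56.8 CPM), Elane (120 ± 13.8 CPM) and Prtn3 (154 ± 21.8 CPM), of primary granules, had none. Mast cell, basophil and eosinophil markers were open in 0 of 12 cases, of which 10 were at or above 1 CPM. Their summed levels were 1478 to 2074 CPM, mostly from the eosinophil granule genes Prg2 (1168 ± 200.2 CPM, no listed start and no region at an end) and Epx (389 ± 145 CPM). Macrophage markers summed to 831 to 1086 CPM and were open in 5 of 9 cases, and in 5 of the 7 at or above 1 CPM. The open ones included Cd68 (258 ± 11.0 CPM) and C1qb (67.1, 95.2 and 155 CPM), while the tissue macrophage gene Timd4 was at 0. In bulk samples fewer cells of a type and less RNA per cell cannot be told apart, and the part these other cells play in the relation of peaks to RNA was not tested.

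Lymphoid and non-haematopoietic markers were nearly silent. B cell markers summed to 29.8 to 42.6 CPM and T and NK cell markers to 6.30 to 10.4 CPM, with 0 of 6 and 0 of 12 open. Of these, 5 and 9 were below 1 CPM, where 6.21% of all genes were open, so few open starts would be found in any case. Cd3e, a chain of the T cell receptor complex, stood at 0.147 ± 0.141 CPM. Stromal and endothelial markers summed to 41.6 to 61.9 CPM with 0 of 6 open, 4 of them below 1 CPM. Erythroid markers had 1 of 7, Tfrc (118 ± 12.3 CPM), the transferrin receptor of dividing cells in general. The other 6 erythroid markers were below 1 CPM, and both beta-globin genes were at 0. None of 18 genes of unrelated lineages and none of 9 HoxA genes were open, and 17 and 8 of these were below 1 CPM, where only 6.21% of all genes are open; Alb and Myod1 had no count, and Hoxa9 stood at 3.20 ± 0.355 CPM.

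Not every expressed gene was open, and some of the most abundant transcripts had no peak at a listed start. At or above 1 CPM, 2147 genes were not open. Of these 575 had a peak in 1 library, 597 (27.8%) had a consensus region elsewhere in the gene and 984 (45.8%) had a distal region within 50 kb. At or above 100 CPM there were 207, of which 99 (47.8%) had a region elsewhere in the gene, 144 (69.6%) had a distal region and 47 had neither of these nor a peak in 1 library. The 10 with the most RNA and no peak of either library at a listed start were Chil3, Eef2, Mmp12, Actg1, Ctss, Lcn2, Iqgap1, Mgl2, Cybb and Mpeg1. Mmp12 (2320 ± 186 CPM) is the macrophage elastase and Lcn2 (1468, 1307 and 913 CPM) binds siderophores. Mgl2 (1157 ± 103 CPM) is a galactose lectin, Cybb (1124 ± 46.6 CPM) is the catalytic chain of the phagocyte oxidase, and Mpeg1 (992 ± 115 CPM) is a pore-forming protein. The nearest region was 208 kb away for Chil3, 36.1 kb for Mgl2, 24.2 kb for Lcn2 and 7.02 kb for Mmp12, but only 1.64 kb for Cybb and 2.83 and 2.85 kb for Ctss and Mpeg1. Eef2 (2507 ± 56.6 CPM), an elongation factor, Actg1 (2215 ± 67.4 CPM), a cytoplasmic actin, and Iqgap1 (1164 ± 31.2 CPM), a cytoskeletal scaffold, are broadly used genes. Their CpG ratios were 1.11, 1.12 and 0.818, against 0.107 to 0.396 for the other 7. The only listed starts of Iqgap1 and Cybb lay inside the gene, so their outer 5′ ends were not examined. In these genes or within 1 kb of them lay 4 and 2 consensus regions.

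In the reverse case, open starts of genes without a count were often next to another active gene. Among the 50 open genes without a count, 27 (54.0%) had the start of a gene at or above 1 CPM within 2 kb, against 13 of 4987 (0.261%) of those not open. Open means a region within 1 kb of a start, so the region of a neighbour can count for both genes. This contrast can therefore follow from the definition. With starts over 2 kb from any other gene's start, the open share of genes without a count was 0.435%. The 10 genes below 0.1 CPM with the strongest peaks within 1 kb of a start had folds of 15.2 to 19.3 in replicate 1 and 17.6 to 20.0 in replicate 2. Neighbouring starts are not given for these 10, so such a peak can be that of another gene. They were the long noncoding 4930483J18Rik, A230056J06Rik, 1600023N17Rik, 2900009J06Rik and Gm38431, and the protein-coding Gm14548, Ccdc151, Sugct, Dnaic1 and Iqch. Ccdc151 and Dnaic1 belong to the machinery of motile cilia, with 0.0691 ± 0.0910 and 0.0347 ± 0.0344 CPM.

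The genes with the most distal regions were looked for only among genes at or above 1 CPM, so none with less RNA could appear. Of these, Myh9 (2785, 2802 and 2420 CPM), the nonmuscle myosin heavy chain, and Nrros (364 ± 2.94 CPM), a regulator of TGF-beta in myeloid cells, had 9 each. Ccl6, Notch2 (392 ± 16.0 CPM) and Bex6 (2.58 ± 0.209 CPM) had 8. Fth1 (5224 ± 313 CPM), the ferritin heavy chain, Sh3bgrl3 (777 ± 20.7 CPM, promoter region 1433 bases) and Isyna1 (141 ± 8.52 CPM), the enzyme that makes inositol phosphate, had 7. All but Bex6 were open, and Bex6 lies on the same chromosome as Nrros, whose 50 kb window overlaps its own.

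Sequence set open and other starts apart. Among 21770 listed starts, the 9155 open ones had a median CpG ratio of 0.810 against 0.298 at the 12615 others, a difference of 0.512. The ratio exceeded 0.6 at 81.2% of open and 23.7% of other starts, and median GC content was 62.0% against 51.3%. Expression and CpG content were each related to openness with the other held in classes. Among starts with a ratio of up to 0.2, the open share was 0.116% without a count and 2.71% with a count but below 1 CPM. It was 16.2% from 1 to 100 CPM and 36.5% at or above 100 CPM. Among starts with a ratio over 0.8 it was 9.51%, 35.1%, 85.7% and 91.7%. CpG-poor starts at or above 100 CPM were thus about as often open as CpG-rich starts with a count but below 1 CPM. CpG-rich starts without a count, at 9.51%, were open less often than either. Open starts with a ratio up to 0.2 had weaker regions, at median folds of 6.53 and 7.36, than those over 0.8, at 11.1 and 12.9, yet their genes had a median of 46.5 CPM against 42.2.

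**Figure D5:**
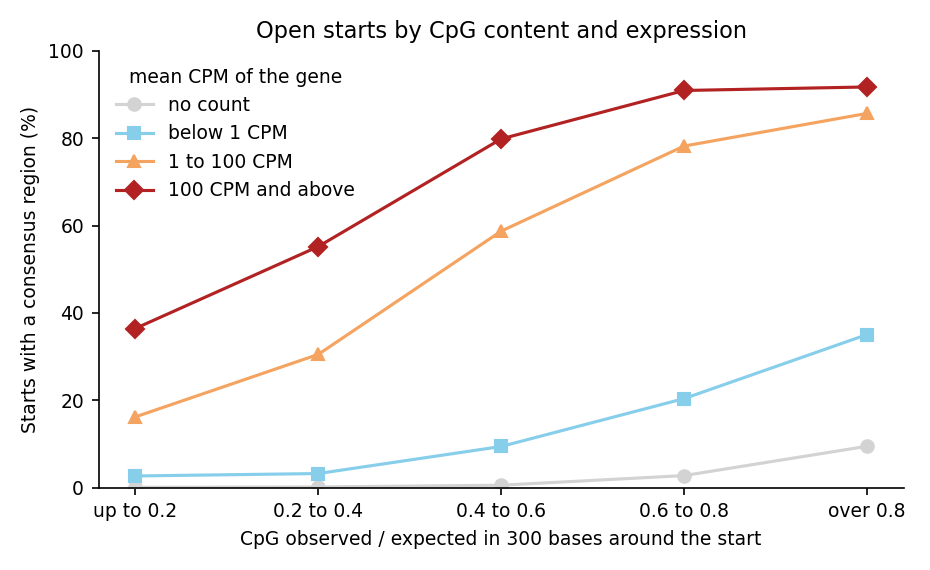
Share of listed starts (%) with a consensus region, by CpG observed over expected ratio of the 300 bases around the start, with 1 line per class of mean CPM. Each line rises from left to right, and at a ratio of up to 0.2 even genes at or above 100 CPM reach only 36.5%.

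The gene lists differed in CpG content too, and their open shares followed it only in part. The median CpG ratio was 0.949 for cell cycle genes, 0.853 for the transcription factors and 0.844 for housekeeping genes, the 3 lists with the highest open shares. It was 0.275 for the receptors, 0.217 for cytokines, 0.332 for interferon-stimulated genes, 0.176 for mast cell, basophil and eosinophil markers and 0.156 for granulocyte markers. MHC class II genes had a median of 0.174 with 9 of 11 open, and HoxA genes 0.787 with 0 of 9 open. Macrophage markers had 0.205 and chemokines 0.271, each with 5 of 9 open. B cell markers had 0.447 with 0 of 6 open and genes of unrelated lineages 0.381 with 0 of 18, so the order was not strict. These open shares count members below 1 CPM as well.

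Short motifs were counted in the 300 bases around all 21770 starts on both strands, as exact letters with N for any base. A match is a string of letters, not a bound site. Motifs of broadly used factors were more frequent at open starts. The ETS motif CCGGAAGT was in 5.19% of all starts, 10.0% of open and 1.66% of others. For NRF1 (GCGCNTGCG) the shares were 8.70%, 16.4% and 3.08%, for SP/KLF (GGGCGG) 46.5%, 69.2% and 30.1%, for YY1 (AAGATGGC) 3.11%, 5.34% and 1.49%, and for CRE (TGACGTCA) 2.31%, 3.67% and 1.32%. These motifs contain CpG or are GC-rich, YY1 excepted, and open starts were richer in CpG. Others were less frequent: the TATA box (TATAAA) was in 12.3% of all, 5.76% of open and 17.1% of other starts, and AP-1 (TGANTCA) in 7.33%, 4.13% and 9.65%. Shares at starts that were not open also differed with expression, so these contrasts mix openness with expression. Without a count and at or above 1 CPM they were 24.0% and 10.1% for TATAAA, 11.7% and 8.02% for AP-1, and 17.3% and 43.6% for SP/KLF. The myeloid factor PU.1 (GAGGAAGT) was at 3.20%, 3.35% and 3.09%, C/EBP (TTGCNCAA) at 2.79%, 2.39% and 3.08%, the IRF motif (GAAANNGAA) at 7.99%, 6.59% and 9.01%, the ETS-IRF composite (GGAANNGAA) at 7.63%, 6.91% and 8.14%, and NF-kB (GGGANTTCC) at 1.86%, 2.63% and 1.30%. The composite can overlap the PU.1 and ETS letters, which share GGAA with it.

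NF-Y (CCAAT) showed its difference within the open starts. It was in 38.3% of all starts, 39.6% of open and 37.4% of other starts, but in 55.6% of the top 25% of open starts by fold against 28.7% of the bottom 25%. For ETS these bins held 11.1% and 7.38%, for NRF1 18.1% and 10.6%, for PU.1 3.15% and 4.89%. In the shown promoters CCAAT stood 19 bases after the start at Desi2 and, on the other strand, 121 bases before it at Irf8 and 178 bases before it at Itgax. It also stood 223 bases before the start at Chil3, which had no peak.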

How the data were processed

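RNA was measured in 3 and open chromatin in 2 vehicle libraries. For RNA the authors deposited raw read counts per gene symbol, from a stranded poly(A) kit per the labels' protocols. Each ATAC library has a peak list in which the authors deposited a fold (a ratio over local background) and a −log10 q per summit, and the group has a consensus list. Among the tools listed in the submitters' processing notes, without roles, are STAR 2.7.11b, Bowtie2 2.4.4, MACS3 3.0.0a7, Trim Galore 0.6.7, Picard, SAMtools 1.7, ChIPseeker 1.30.0 and HOMER, with build mm10. Not given in the sources used here are the read counter, its strand setting and the settings of peak calling. Overlapping or near-identical genes may therefore share or lose reads.

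Rows sharing an interval (several summits) were merged, keeping the highest fold, and the smallest −log10 q was 1.31 in each list. The deposited consensus equalled the intersection of both lists. CPM used TMM factors over all 6 RNA libraries (edgeR 4.0.16, R 4.3.3; scaling only), and DESeq2 1.42.0 size factors and library totals were alternatives. Levels per kb were not computed, because no transcript lengths were used here, so CPM was used instead. The 24385 symbols were matched to RefSeq GRCm38.p6 by current symbol (23194) or synonym (1042), and 149 were not matched. Start sites and sequences came from the RefSeq promoter table. Extract RNA libraries entered only the TMM factors, and extract ATAC files were not used here. Where a gene had several starts, any open start counted. For genes with a listed start only listed starts were examined, and some of these lie inside the gene. No treatment comparison and no p-value was computed: with 2 ATAC libraries of 1 group there is nothing to test, and spread is given as SD or both values. The peak and overlap steps were tested on simulated data. Replicate RNA libraries differed by more than counting noise (chi-square per degree of freedom 5.33 to 25.6).

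Members, lists (307 entries in 19 lists), motifs and tests were chosen with earlier results of these data known. The named genes were 22 chosen by role (1 is not reported here), the 5 strongest and 5 widest regions, in each list the most abundant member and up to 6 whose start and RNA disagreed, the 10 most abundant genes with no peak at the start, the 10 strongest starts below 0.1 CPM and the 8 genes with most distal regions among those at or above 1 CPM. Not every list member so picked is given above, and Clec4n, Mx1, Mcpt8, Gata2 and Cd79a are among those left out. Other list members (such as Gapdh, Stat3, Itgam, H2-Eb1 and Irf1) were named after their values were seen. Alternatives are given at the end.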

Additional observations from a re-analysis of the deposited data

How the results depend on the processing

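The values below give each result again under other choices, in the order promoter share of regions (reported as 48.0%), open share at or above 1 CPM (77.3%), open share without a count (0.993%), difference in open share between genes at or above 100 CPM and all genes below 0.1 CPM, those without a count included (86.3 points), and open share of list members at or above 1 CPM (58.0%). A 100-base window gave 44.5%, 73.9%, 0.794%, 83.1 and 53.8%, and a 3 kb window 52.1%, 79.7%, 1.63%, 88.0 and 61.5%, with a CpG difference of 0.503 against 0.512. A −log10 q of at least 2 moved the promoter share to 48.9% and the lists to 56.2%. At 5 the values were 52.6%, 73.4%, no move, 84.0 and 49.1%, and at 10 they were 58.8%, 66.5%, 0.834%, 77.9 and 40.2%. At 5 and 10 the median width became 513 and 547 bases (475 reported), the shared share of intervals 86.7% and 87.9% (82.7%), the promoter to distal fold 1.52 and 1.35 (1.76), and the rank correlation of promoter fold with CPM 0.0522 and 0.00427 (0.0897). At 10 the correlation of width with CPM fell to 0.185 (0.214), the correlation of distal regions to 0.183 (0.206) and the CpG difference to 0.496. Stricter thresholds leave fewer and stronger peaks by construction; otherwise the cause was not tested.

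Taking either ATAC library alone, or leaving out RNA replicates in turn, gave 42.5 to 42.6%, 77.2 to 81.6%, 1.14 to 1.39%, 86.1 to 88.1 and 63.3 to 64.5%, a width of 487 to 518 bases, a correlation of width with CPM of 0.212 to 0.249 and a correlation of distal regions with CPM of 0.198 to 0.210. Unmerged rows had a median width of 535.5 bases, and 50% reciprocal overlap left 76.7% of intervals shared. Thresholds of 0.5 and 2 CPM gave 74.5% and 79.9% open. Starts over 2 kb from any other gene's gave 73.1% at or above 1 CPM, 0.435% without a count, and rank correlations of 0.127 (fold) and 0.270 (width). Genes at or above 1 CPM alone had a rank correlation of fold with CPM of 0.0597, and distal regions within 20 kb a rank correlation of 0.174. In choices added after seeing the data, counting either end of genes with no listed start gave a promoter share of 57.3% and a class difference of 85.2, and protein-coding genes alone gave 0.693% and 87.1. Library totals and DESeq2 size factors moved no value by more than the difference between the ATAC libraries. Levels per kb were not run, and a filter of at least 10 counts leaves no genes without a count. No paired analysis was possible because nothing was tested between groups. ATAC depth is unknown, so a start with no peak means that none was called at this depth, not that it was shut.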
